A study of Mus musculus with 36 samples.

Results

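The fetal growth and Lin28-Igf2 genes described here are 9 of the 18845 genes of the deposited table, taken by gene symbol: Igf2, Igf1, Igf1r, Dlk1, Igf2bp1, Igf2bp2, Igf2bp3, Lin28b and Hmga2. They were followed in RNA purified through an HA-tagged ribosomal protein, Rpl22 (RiboTag), from mouse diaphragm and spinal cord of embryos (E15.5), newborn pups (P0.5), pups on postnatal day 10 (P10) and adults of 2 months. Synapse-enriched diaphragm muscle came from mice with the RiboTag allele and ChAT-Cre, called Cre-positive here, and from mice with the RiboTag allele alone, called Cre-negative. Spinal cord came from mice with both alleles, and a Cre-negative spinal cord was not analysed here. Each of the 12 groups had 3 libraries, 36 in all. ChAT-Cre acts in cells that use the promoter of choline acetyltransferase, which in spinal cord are motor neurons and other cholinergic cells. In Cre-negative muscle no tag is switched on, so its libraries hold what the purification carries over from the whole tissue. The labels do not say whether the 3 libraries of a group came from separate animals, so the p-values measure the spread between these libraries, which may be technical.

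Igf2, insulin-like growth factor 2, is the main growth factor of the mouse fetus, is expressed from the paternal chromosome and is switched off in most tissues after birth, while Igf1, made by liver and muscle, takes over under growth hormone. Both ligands act through the receptor kinase encoded by Igf1r. Lin28b is an RNA-binding protein of immature cells that blocks the maturation of the let-7 microRNAs, and let-7 in turn represses Lin28b, Hmga2 and the Igf2bp genes. The Igf2bp genes encode cytoplasmic proteins that bind Igf2 and other mRNAs, Hmga2 encodes a chromatin protein of growing tissue, and Dlk1 encodes a paternally expressed Notch-like membrane protein of fetal tissues and muscle and fat precursors.

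The let-7 microRNAs were not measured in these libraries, but their seed is what joins several of these genes. Of the 11 mature let-7 family sequences in RefSeq (assembly GRCm38.p6), 10 shared the seed GAGGUAG at bases 2 to 8, and let-7j did not carry it. Bases 2 to 8 of each sequence are written in capitals in the lines that follow, also for let-7j.
mmu-let-7a-5p (chr13:48538239-48538260, minus strand): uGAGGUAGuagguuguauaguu
mmu-let-7g-5p (chr9:106178846-106178867, plus strand): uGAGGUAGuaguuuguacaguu
mmu-miR-98-5p (chrX:151913229-151913250, plus strand): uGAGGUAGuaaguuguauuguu
mmu-let-7j (chr3:140028281-140028304, plus strand): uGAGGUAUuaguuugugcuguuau
These 4 are shown because 3 of them differ outside the seed and carry the same seed letters, and the fourth does not carry them.

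Promoter windows, 250 bases before to 50 bases after a transcript start, were listed in RefSeq for 8 of the 9 genes and not for Igf2bp1. The windows of Igf2bp3 and Lin28b are shown because these were the members in which the letters CACGTG, an E-box read the same on both strands, were found, in capitals.
Igf2bp3 (GRCm38.p6, chr6:49214905-49215204, minus strand): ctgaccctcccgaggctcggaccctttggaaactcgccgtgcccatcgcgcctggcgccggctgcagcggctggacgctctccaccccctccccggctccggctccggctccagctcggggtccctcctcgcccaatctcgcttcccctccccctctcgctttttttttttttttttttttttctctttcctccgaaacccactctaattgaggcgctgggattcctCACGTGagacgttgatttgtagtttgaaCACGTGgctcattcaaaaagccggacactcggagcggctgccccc
Lin28b (GRCm38.p6, chr10:45470152-45470451, minus strand): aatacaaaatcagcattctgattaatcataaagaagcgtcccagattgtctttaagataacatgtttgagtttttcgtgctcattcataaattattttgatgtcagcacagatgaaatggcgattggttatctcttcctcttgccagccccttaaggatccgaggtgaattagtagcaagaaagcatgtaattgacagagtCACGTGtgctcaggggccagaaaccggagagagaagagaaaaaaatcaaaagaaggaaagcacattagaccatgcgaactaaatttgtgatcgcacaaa
The 8 genes have 11 such windows, 4 of them of Igf2. CACGTG was present in 2 of the 11 windows, those of Igf2bp3 and Lin28b, and in 2349 of all 32851 promoter windows of this length (7.15%). A second motif, GGGCGG, a GC box searched on both strands, was present in 5 of the 11 windows, from 4 genes (Igf1r, Igf2, Igf2bp2 and Hmga2), and in 35.7% of all windows. The letters were searched after the sequences had been seen, they are a description of these windows, and no binding was measured.

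On the same assembly the genes lie at chr7:142650768-142666816 for Igf2, chr10:87858265-87937047 for Igf1, chr7:67952257-68233668 for Igf1r, chr12:109452485-109463336 for Dlk1 and chr11:95957163-96005944 for Igf2bp1. Igf2bp2 lies at chr16:22059009-22163299, Igf2bp3 at chr6:49085218-49215469, Lin28b at chr10:45376617-45486314 and Hmga2 at chr10:120361268-120476469. These are whole genes, and the counts carry no information on exons or transcript forms.

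Levels are in CPM, reads of a gene per 1000000 reads of the library that fell on genes. They are not divided by gene length, so a level of one gene is compared with itself in other samples and not with another gene. The 24 diaphragm libraries held 68.2 to 107 M reads (M, 1000000) and the 12 of spinal cord 63.7 to 71.8 M, and 3 reads, taken as the floor for a gene at 0, came to 0.0280 to 0.0471 CPM. Intervals or floors of this kind cover counting error only. Differences between groups are differences of mean log2(CPM + 1), fitted with limma across all genes with at least 1 CPM in 3 libraries, and a gene passed where its Benjamini-Hochberg adjusted p was under 0.05. The added 1 shrinks differences of genes with levels near or under 1 CPM. Groups in which a gene is at or near 0 can lower its shared spread, as for Lin28b, Igf2bp1 and Hmga2 in diaphragm.

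In every one of the 12 groups 1 library was nearly a weighted sum of the other 2, with weights adding up to 0.999 to 1. It was replicate 3 in 9 groups, replicate 2 in Cre-negative diaphragm at E15.5, replicate 1 in adult Cre-negative diaphragm and replicate 1 in Cre-positive diaphragm at P0.5. These intermediate libraries narrow the spread of their groups, so the results are also given without them, which leaves 2 libraries in a group. Diaphragm libraries carried muscle transcripts as labelled: 12 mature muscle markers summed to 4819 to 6184 CPM at E15.5, 15023 to 15369 at P0.5, 7955 to 9132 at P10 and 13531 to 13852 in adult Cre-positive diaphragm. Chat, which defines the cells that ChAT-Cre marks, averaged 0.00654 CPM in adult Cre-positive diaphragm and 0.0784 CPM at E15.5 and was at 0 in all Cre-negative libraries, while spinal cord had 64.6 CPM in adults and 15.9 CPM at E15.5.

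The 9 genes had lower means in adults than at E15.5 in both tissues, and they reached them on different schedules. In adult against E15.5 Cre-positive diaphragm 7 of the 9 passed as lower and 0 as higher, where 36.2% of all 13853 genes tested passed as lower (the median difference was -2.80 for the members and -0.59 for all genes, in log2). In Cre-negative diaphragm 9 of 9 passed as lower, against 34.9% of all genes, with medians of -2.44 and -0.43. In spinal cord the 6 that reached the filter all passed as lower, against 58.1% of the 13373 genes tested, with medians of -3.16 and -0.38. Igf2bp1, Lin28b and Hmga2 met the filter of the diaphragm fit only through their E15.5 libraries, so they could hardly come out otherwise, and these counts and medians are a description. Of the other 6 members 5 passed as lower in Cre-positive and 6 in Cre-negative diaphragm. Without the intermediate libraries 7 of 8 tested passed in Cre-positive diaphragm, 7 of 8 in Cre-negative diaphragm and 6 of 6 in spinal cord. In bulk RNA such as this, fewer cells of a type and less RNA per cell cannot be told apart.

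**Figure D1:**
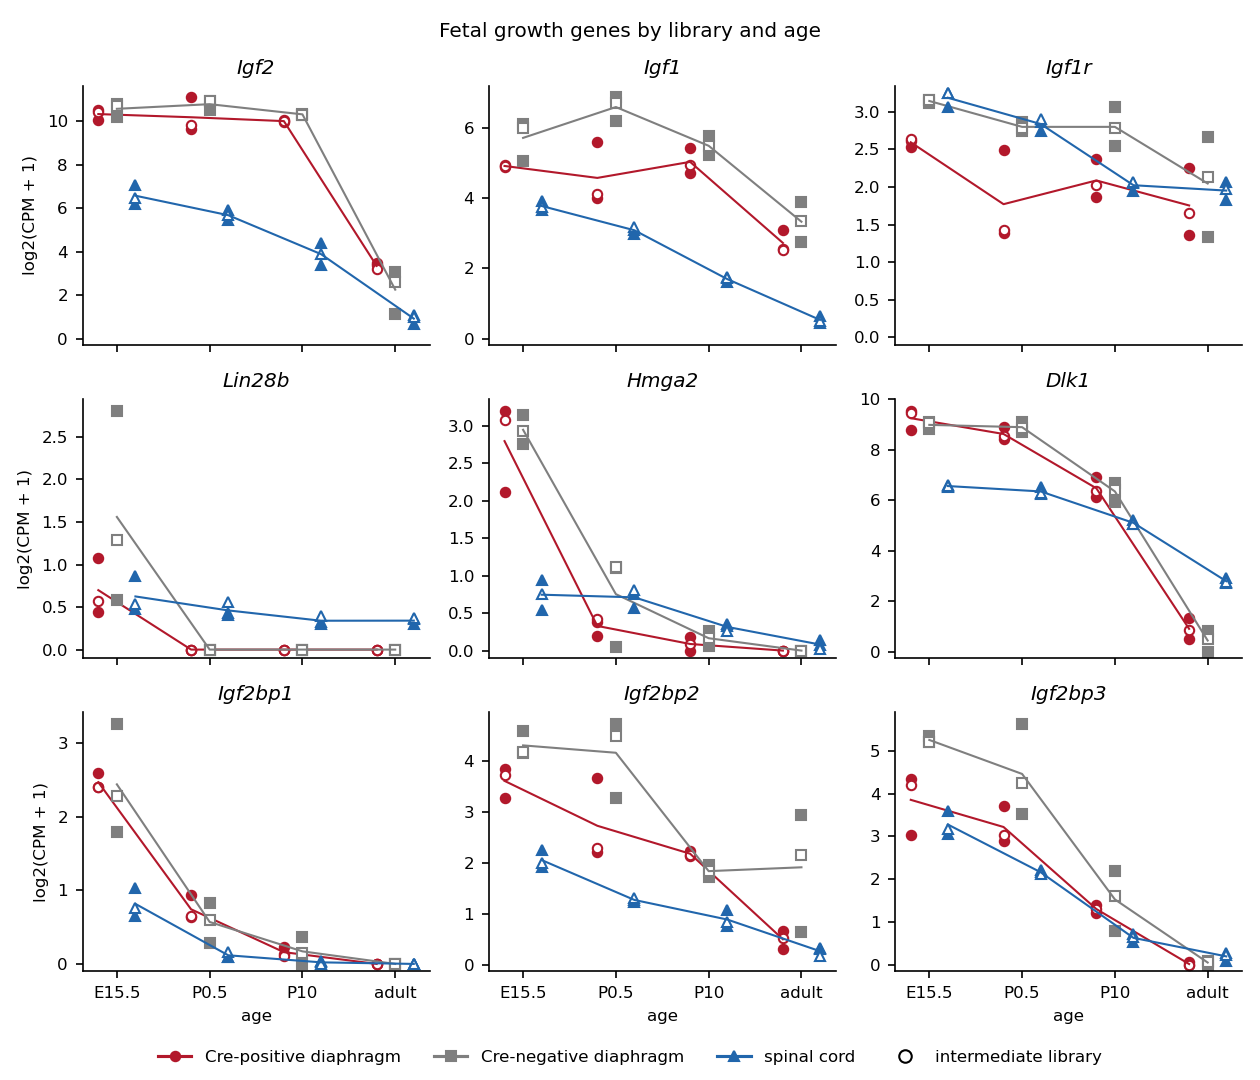
Level of each of the 9 genes as log2(CPM + 1) in every library (vertical axis) at E15.5, P0.5, P10 and in adults (horizontal axis). Red circles are Cre-positive diaphragm, grey squares Cre-negative diaphragm and blue triangles spinal cord, lines join the group means of the log2 values, and open symbols are the intermediate libraries. Diaphragm Igf2 stays high to P10 and is near the foot of its panel in adults, whereas spinal cord Igf2 steps down at every age.

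Igf2 kept 79.2% of its E15.5 mean in Cre-positive diaphragm at P10 and was under 1% of it in adults. In Cre-positive diaphragm its 3 libraries had 1468, 1067 and 1388 CPM at E15.5, 906, 2211 and 801 at P0.5, 1070.4, 995 and 1039 at P10, then 10.2, 9.33 and 8.17 in adults. All 9 libraries up to P10 thus lie above all 3 adult libraries, and P0.5 replicate 2 stands apart upward. P0.5 replicate 1 was nearly a copy of replicate 3 (weights 0.966 for replicate 3 and 0.0339 for replicate 2). Replicates 1 and 3 are therefore not independent of each other, and which P0.5 level is the usual one cannot be told. Adult Cre-positive diaphragm averaged 9.22 ± 1 CPM against 1308 ± 213 at E15.5 (SD, n = 3 each), which is 0.705% of the E15.5 mean (log2 difference -6.99, SE 0.36, adjusted p = 1.11e-12, and 1.97e-07 without the intermediate libraries). Adult against P10 differed by nearly as much (-6.67, adjusted p = 1.53e-11), while P0.5 against E15.5 differed by -0.15 (adjusted p = 0.814).

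Cre-negative diaphragm showed the same course of Igf2, at 1187, 1669 and 1816 CPM at E15.5, 1465, 1973 and 1943 at P0.5, 1271, 1304 and 1278 at P10, then 5.02, 1.17 and 7.33 in adults. Its mean at P10, 1284 ± 17.7 CPM, was 82.5% of that at E15.5, and its adult mean, 4.51 ± 3.11 CPM, was 0.289% of it (log2 difference of adult and E15.5 -8.33, SE 0.36, adjusted p = 6.71e-14). The late drop of Igf2 in diaphragm was thus also present in mice without Cre.

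In spinal cord Igf2 fell at each step. Its libraries had 73.0, 133 and 87.7 CPM at E15.5, 42.4, 60.1 and 50.1 at P0.5, 9.56, 19.9 and 13.8 at P10, then 1.14, 0.584 and 0.999 in adults. The libraries of neighbouring ages do not overlap. The differences were -0.90 from E15.5 to P0.5 (adjusted p = 0.0182, and 0.17 without the intermediate libraries), -1.79 from P0.5 to P10 and -2.97 from P10 to adulthood, and the adult mean was 0.928% of the E15.5 mean (-5.66, SE 0.29, adjusted p = 3.28e-08). The first step also lost its call when E15.5 replicate 2 (adjusted p = 0.0673) or P0.5 replicate 1 (0.0601) was left out.

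Igf1, the postnatal ligand, was not higher in adults than in fetuses in any of the 3 series. Cre-positive diaphragm had 28.7, 29.4 and 28.9 CPM at E15.5, 16.2, 47.5 and 15.0 at P0.5, 25.0, 41.8 and 29.9 at P10, then 7.45, 4.86 and 4.76 in adults. The adult libraries lie below all others, and the high P0.5 library is again replicate 2. The adult mean was 19.6% of the E15.5 mean, 5.69 ± 1.52 against 29.0 ± 0.381 CPM (-2.19, SE 0.38, adjusted p = 7.05e-05, and 0.0216 without the intermediate libraries). Igf1 in Cre-negative diaphragm peaked in its mean at P0.5, with 31.8, 61.8 and 68.0 CPM at E15.5, 71.4, 115 and 104 at P0.5, 36.1, 53.3 and 43.2 at P10, then 9.17, 13.7 and 5.69 in adults. The P0.5 libraries are all above those of E15.5, but the difference did not pass, whereas adult against E15.5 did (-2.38, adjusted p = 2.22e-05). In spinal cord Igf1 fell at each step, with group means of 12.7, 7.46, 2.23 and 0.448 CPM from E15.5 to adulthood, no overlap between neighbouring ages and 3.54% of the E15.5 mean left in adults (-3.24, SE 0.09, adjusted p = 3.82e-14).

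Igf1r, the receptor of both ligands, kept a larger share of its fetal mean in adults than either ligand did, but not at P10 in diaphragm. There Igf1r was at 65.3% of its E15.5 mean in Cre-positive mice, with Igf2 at 79.2% and Igf1 at 111%, and at 77.0% in Cre-negative mice, with Igf2 at 82.5% and Igf1 at 82.0%. Adult Cre-positive diaphragm had 3.76, 1.56 and 2.16 CPM against 5.09, 4.80 and 5.25 at E15.5. The groups do not overlap, and the difference of -0.84 (SE 0.36) did not pass (adjusted p = 0.0579). Adult Cre-negative diaphragm had 3.41, 5.32 and 1.53 CPM against 7.68, 7.94 and 7.92 at E15.5 (-1.10, adjusted p = 0.014). That call was lost without adult replicate 3 (adjusted p = 0.0993) and under other scalings (0.0751 with TMM factors and 0.159 with quantile normalization). In spinal cord Igf1r averaged 8.13, 6.16, 3.07 and 2.88 CPM from E15.5 to adulthood (adult against E15.5 -1.24, SE 0.09, adjusted p = 1.75e-09), and the last step, from P10 to adulthood, did not pass (-0.07, adjusted p = 0.481).

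**Figure D2:**
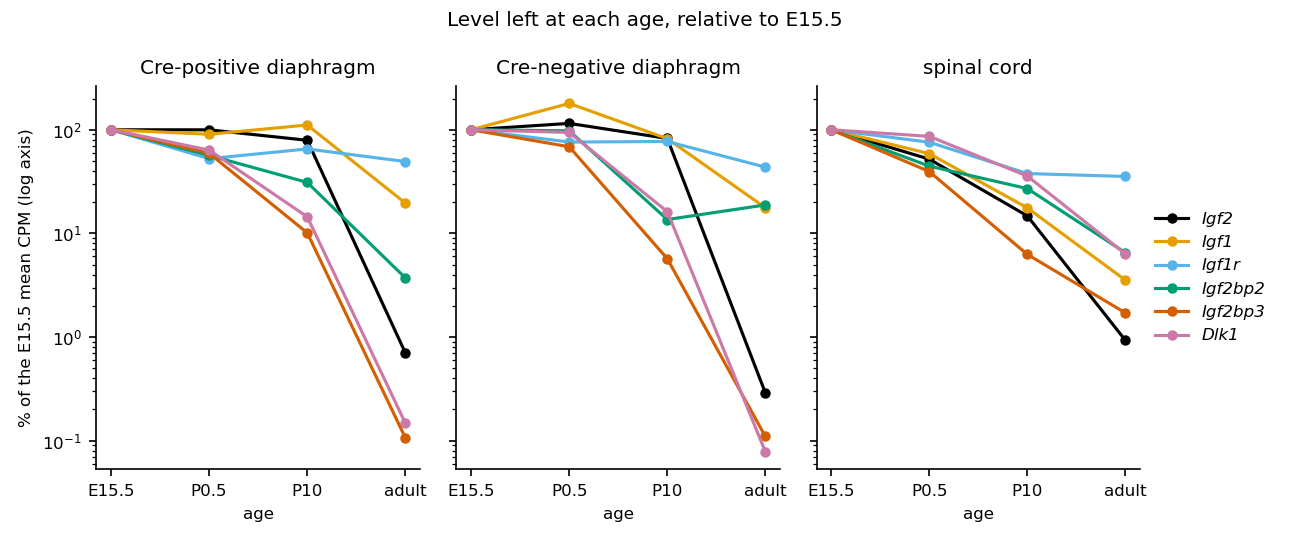
Mean CPM of 6 of the genes at each age (horizontal axis) as a percent of their own E15.5 mean (vertical axis, log scale), in panels for Cre-positive diaphragm, Cre-negative diaphragm and spinal cord. Igf1r stays at 35.4% or more in adults in all 3 panels, while Igf2 ends at 0.705%, 0.289% and 0.928%.

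Dlk1 had a stepwise decline after P0.5 in both tissues and ended lower in diaphragm. Cre-positive diaphragm had 741, 436 and 709 CPM at E15.5, 369.8, 482 and 348 at P0.5, 69.1, 121 and 82.2 at P10, then 1.52, 0.430 and 0.843 in adults. The P0.5 libraries overlap those of E15.5, and the later ages lie apart from each other. The adult mean was 0.148% of the E15.5 mean, 0.930 ± 0.549 against 629 ± 167 CPM (-8.35, SE 0.27, adjusted p = 1.19e-15, and 1.01e-08 without the intermediate libraries), and the fall passed from P0.5 to P10 (-2.15, adjusted p = 1.26e-05) and from P10 to adulthood (-5.57, adjusted p = 6.79e-12). Cre-negative diaphragm had 0.426, 0 and 0.773 CPM of Dlk1 in adults against 454, 531 and 547 at E15.5 (-8.55, adjusted p = 5.47e-16). Spinal cord had less Dlk1 at E15.5 and more of it left in adults, with 91.7, 96.7 and 93.5 CPM at E15.5, 90.4, 76.0 and 77.0 at P0.5, 32.6, 35.9 and 32.2 at P10, then 6.51, 5.53 and 5.87 in adults. Its first step there (-0.21, adjusted p = 0.0219) did not pass with TMM factors (-0.07, 0.419), RLE size factors (-0.06, 0.482), quantile normalization (-0.15, 0.0651) or edgeR (-0.06, 0.442), nor when E15.5 replicate 2 (0.0566), P0.5 replicate 2 (0.094) or P0.5 replicate 3 (0.0898) was left out. There 6.35% of the E15.5 mean was left in adults (-3.77, SE 0.08, adjusted p = 1.59e-15), and adult spinal cord had more Dlk1 than adult diaphragm.

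Lin28b, the block on let-7, was detected in diaphragm only at E15.5. Cre-positive diaphragm had 32, 106 and 44 reads in its 3 E15.5 libraries (0.360, 1.11 and 0.489 CPM) and 0 reads in all 9 later libraries. Cre-negative diaphragm had 490, 116 and 40 reads at E15.5 (5.98, 1.44 and 0.5 CPM) and 0 reads in all 9 later ones, and its replicate 1 stood well above the others of its group. Against a floor of 3 reads per library the mean was at least 20.5-fold lower at P0.5, 21.0-fold lower at P10 and 22.0-fold lower in adults than at E15.5 in Cre-positive diaphragm, and at least 65.7, 79.9 and 78.5-fold lower at these ages in Cre-negative diaphragm. These bounds rest on the highest E15.5 library of each group: they came to 13.3, 13.7 and 14.2 without Cre-positive replicate 2, and to 24.2, 29.4 and 28.9 without Cre-negative replicate 1. The fit gave -0.70 in adult against E15.5 Cre-positive diaphragm (adjusted p = 0.0924, and 0.0183 with edgeR on the recovered reads) and -1.56 in Cre-negative diaphragm (adjusted p = 0.000564). The spread used in this fit was shared with the groups in which Lin28b was at 0 in every library. These p-values thus do not reflect the spread of the E15.5 libraries alone, which was wide in Cre-negative diaphragm. Lin28b had at least 1 CPM in exactly 3 diaphragm libraries, so leaving out any of those 3 removes it from the test.

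Spinal cord kept Lin28b reads at every age. Its libraries had 0.389, 0.816 and 0.453 CPM at E15.5, 0.343, 0.321 and 0.469 at P0.5, 0.230, 0.251 and 0.317 at P10, then 0.281, 0.228 and 0.290 in adults. Each of these values rests on 15 to 52 reads, and the P10 and adult groups overlap. The levels are under the filter, and a fit of all genes gave -0.28 in adult against E15.5 spinal cord (adjusted p = 0.00999).

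Hmga2, a let-7 target and chromatin protein, was low in diaphragm from P0.5 on. In Cre-positive diaphragm it had 8.16, 3.35 and 7.41 CPM at E15.5, 0.335, 0.140 and 0.303 at P0.5, 0.132, 0 and 0.0615 at P10, then 0 in all adult libraries. P0.5 against E15.5 gave -2.47 (adjusted p = 1.85e-06, and 0.0595 with edgeR), and the adult level was at least 212-fold lower than at E15.5 in Cre-positive diaphragm and at least 201-fold lower in Cre-negative diaphragm. In spinal cord Hmga2 was low and held to P0.5, with group means of 0.688, 0.641, 0.246 and 0.0584 CPM from E15.5 to adulthood. The spinal cord libraries of E15.5 and P0.5 overlap, and all later ages lie apart.

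The 3 Igf2bp genes reached low levels in diaphragm at different ages. Igf2bp1 was 1 of 2 members, with Hmga2, that passed as lower from E15.5 to P0.5 in Cre-positive diaphragm, where 18% of all genes did, and both had met the filter only through their E15.5 libraries. It had 4.29, 5.05 and 4.30 CPM at E15.5, 0.568, 0.919 and 0.556 at P0.5, 0.102, 0.170 and 0.0820 at P10, then 0 in adults (P0.5 against E15.5 -1.73, adjusted p = 0.000108, 0.218 with edgeR and 0.12 without the intermediate libraries). Its adult level was at least 153-fold lower than at E15.5 in Cre-positive diaphragm, 147-fold in Cre-negative diaphragm (93.5-fold without E15.5 replicate 1) and 17.7-fold in spinal cord, where it was at 0 in adults as well. Igf2bp3 averaged 14.6 ± 6.47 CPM at E15.5, 8.63 ± 3.09 at P0.5, 1.48 ± 0.148 at P10 and 0.0156 in adult Cre-positive diaphragm, where 1 of 3 libraries had reads. It passed from P0.5 to P10 (-1.92, adjusted p = 0.00518, and 0.306 without the intermediate libraries), together with Dlk1, 2 members where 6.53% of all genes passed as lower. Adult against E15.5 gave -3.83 for Igf2bp3 (SE 0.45, adjusted p = 4.11e-07). Cre-negative diaphragm had 35.8 to 39.7 CPM of Igf2bp3 in its 3 E15.5 libraries, 48.0, 10.5 and 17.9 at P0.5, 0.729, 3.59 and 2.04 at P10, then 0.0560, 0 and 0.0662 in adults. There 1 P0.5 library lay above all E15.5 ones and 2 lay below, and every P10 library lay below every earlier one.

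Igf2bp2, the member of the family known to be kept in some adult tissues, was found in all adult libraries. Cre-positive diaphragm had 13.3, 8.68 and 12.3 CPM at E15.5, 3.95, 11.8 and 3.66 at P0.5, 3.75, 3.41 and 3.49 at P10, then 0.584, 0.243 and 0.451 in adults. The P10 libraries are below those of E15.5 and the adult ones below those of P10 (adult against E15.5 -3.11, SE 0.48, adjusted p = 1.66e-05). Adult Cre-negative diaphragm had 3.49, 0.560 and 6.72 CPM, a spread that overlaps P10 at 2.32, 2.89 and 2.57. In spinal cord the means were 3.20, 1.42, 0.865 and 0.208 CPM from E15.5 to adulthood for Igf2bp2 and 8.82, 3.48, 0.553 and 0.151 CPM for Igf2bp3, and both passed at each of the 3 steps (Igf2bp2 from P0.5 to P10 with adjusted p = 0.0811 without the intermediate libraries).

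From P10 to adulthood 5 members passed as lower in Cre-positive diaphragm, where 15.1% of all genes did: Igf2, Dlk1, Igf1 (-2.30, adjusted p = 0.000182), Igf2bp2 (-1.68, 0.0169) and Igf2bp3 (-1.28, 0.0483). Without the intermediate libraries Igf2 and Dlk1 passed, and Igf1 (0.0768) and Igf2bp2 (0.402) did not. The call of Igf2bp3 was lost whichever P10 or adult library was left out, and that of Igf2bp2 without P10 replicate 3 (0.0508) or adult replicate 2 (0.0572). Cre-negative diaphragm had 3 members lower from E15.5 to P0.5 (Igf2bp1, Lin28b and Hmga2, with 30.2% of all genes), 4 from P0.5 to P10 (Igf1, Igf2bp2, Igf2bp3 and Dlk1, with 13.4%) and 4 from P10 to adulthood (Igf2, Igf1, Igf2bp3 and Dlk1, with 17.5%). The 3 of the first step met the filter only through E15.5 libraries. From P0.5 to P10 the call of Igf1 was lost without P0.5 replicate 2 (0.0871) or 3 (0.0822), without P10 replicate 1 (0.105) or 3 (0.0746), and with quantile normalization (0.0729). From P10 to adulthood that of Igf2bp3 was lost without P10 replicate 2 (0.103) or 3 (0.0623), without adult replicate 1 (0.0527), and with quantile normalization (0.122). Without the intermediate libraries 2 members passed at each of these 3 steps. In spinal cord 6 of 6 passed as lower from E15.5 to P0.5 (44.4% of all genes, and Dlk1 not under the other scalings given above), 6 from P0.5 to P10 (43.5%) and 5 from P10 to adulthood (44.3%), so the count of members there stands beside a large background. At these steps 4, 5 and 5 passed without the intermediate libraries.

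**Figure D3:**
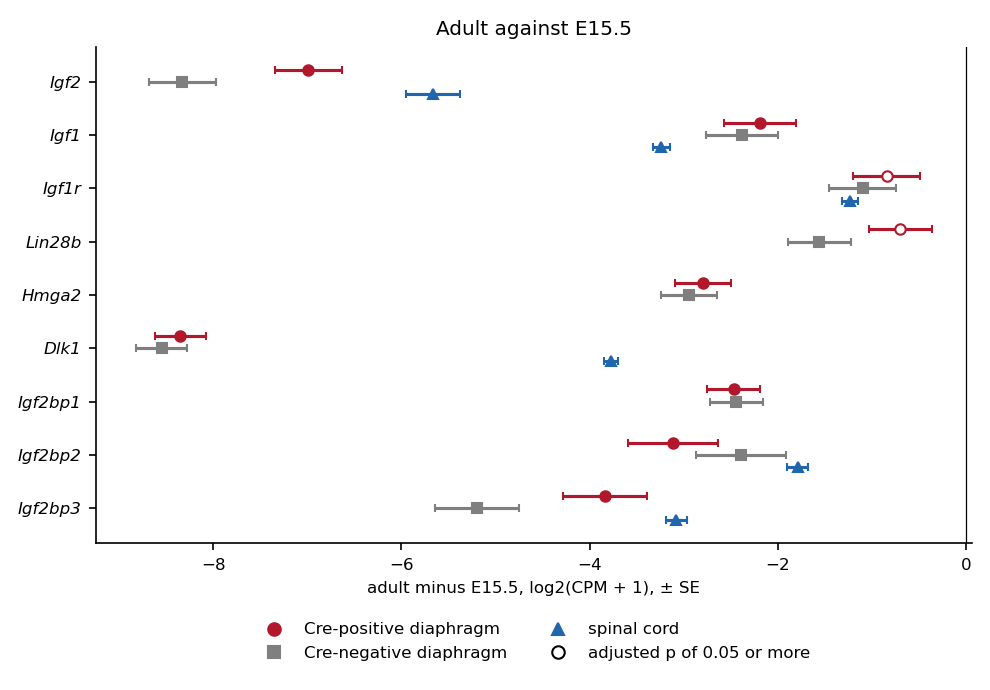
Difference of adult and E15.5 mean log2(CPM + 1) for each gene (horizontal axis, with its standard error as the bar) in Cre-positive diaphragm, Cre-negative diaphragm and spinal cord. Filled symbols have an adjusted p under 0.05 and open ones do not. Igf2bp1, Lin28b and Hmga2 have no spinal cord symbol because they are under the filter there. Dlk1 is at -8.35 and -8.55 in diaphragm and at -3.77 in spinal cord.

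Between Cre-positive and Cre-negative diaphragm the number of members that passed varied with age. At E15.5 1 member was lower in Cre-positive diaphragm (Igf2bp3, 14.6 ± 6.47 against 37.2 ± 2.23 CPM, -1.40, adjusted p = 0.0476), where 6.11% of all genes were lower. That call was lost when any 1 of the 6 libraries was left out. At P0.5 4 members were lower, Igf1 (-2.01, adjusted p = 0.00067), Igf1r (-1.03, 0.0362), Igf2bp2 (-1.43, 0.0303) and Igf2bp3 (-1.24, 0.0436), where 15.7% of all genes were. Left without P0.5 Cre-positive replicate 1 or replicate 3, 1 of these passed (Igf1), and without replicate 2, 5 members did. At P10 0 of 9 passed, where 1.45% of all genes did in either direction, and 0 had an unadjusted p under 0.05 or passed with edgeR. In adults Igf2 was higher in Cre-positive diaphragm (1.09, adjusted p = 0.049, against 3.06% of all genes), and the call was lost when any single library of those groups but adult Cre-negative replicate 3 was left out. Without the intermediate libraries 0 of 8 members passed at any of the 4 ages.

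The change from E15.5 to adulthood was compared between Cre-positive and Cre-negative diaphragm as an interaction. With limma 0 of 9 members passed, where 7.32% of all genes did, 2 had an unadjusted p under 0.05 (Igf2, 1.34 with adjusted p = 0.114, and Igf2bp3, 1.36 with 0.204), and 0 passed with edgeR. For Igf2 the standard error of this interaction was 0.50; this does not show that the genotypes changed alike.

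Diaphragm and spinal cord differed in level at every age. At E15.5 7 of the 8 members tested were higher in Cre-positive diaphragm than in spinal cord and 1 was lower, where 21.5% of all genes were higher and 52.1% lower. Hmga2 and Igf2bp1 are among the 7, and both met the filter of this fit only through the diaphragm libraries of E15.5, so their calls are a description. Of the other 6 members 5 were higher and 1 lower. Igf2bp3 is among the 5 (0.58), and its call was lost with a pseudocount of 0.1 (adjusted p = 0.116), with only the groups compared (0.189), without the intermediate libraries (0.466) and without some single libraries. The background depends on the scaling as well: 70.8% of all calls at E15.5 were lower, and 52.5% with TMM factors. Igf2 had 1308 ± 213 against 97.8 ± 31.1 CPM (3.76), Dlk1 629 ± 167 against 94.0 ± 2.56 (2.69), Hmga2 6.31 ± 2.59 against 0.688 ± 0.237 (2.05) and Igf2bp1 4.55 ± 0.434 against 0.772 ± 0.249 (1.65). Igf1r was the lower one (-0.59, adjusted p = 0.032), and its difference came out at 0.00 with TMM factors, 0.08 with quantile normalization and 0.01 with edgeR. At P0.5 6 members were higher and 1 lower (18.4% and 56.9% of all genes). Of the 6 members tested other than Hmga2 and Igf2bp1, 5 were higher and 1 lower. The lower one was again Igf1r, and its call was lost with TMM factors (-0.26, adjusted p = 0.217), quantile normalization (-0.04, 0.825) and edgeR (-0.25, 0.393), and without the intermediate libraries (0.0689). For P10 the counts were 5 higher and 0 lower (19.9% and 53.1%), and the Igf2 difference was 6.13. In adults Igf2 (2.43) and Igf1 (2.19) were higher in diaphragm, with 19.5% of all genes, and Dlk1 was lower, at 0.930 ± 0.549 against 5.97 ± 0.501 CPM (-1.89, adjusted p = 1.39e-07, and 0.000527 without the intermediate libraries), with 55.3% of all genes. Dlk1 was thus higher in spinal cord in adults and higher in diaphragm at E15.5, with both differences past the threshold.

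The timing was compared as an interaction of tissue and age. By P10 Igf2 was at 79.2% of its E15.5 mean in Cre-positive diaphragm and at 14.7% in spinal cord, and Igf1 at 111% and 17.6%. In P10 against E15.5 the change in diaphragm exceeded that in spinal cord by 2.37 for Igf2 (adjusted p = 0.000149, and 0.0221 without the intermediate libraries) and by 2.19 for Igf1 (0.00019 and 0.0252). Members with a larger fall in diaphragm by P10 were Hmga2 (-2.28, adjusted p = 1.01e-06), Igf2bp1 (-1.51, 1.24e-07, but 0.35 with adjusted p = 0.695 with edgeR) and Dlk1 (-1.32, 0.00154, and 0.114 without the intermediate libraries). Hmga2 and Igf2bp1 are under 1 CPM at P10 in both tissues and met the filter only through diaphragm at E15.5. With 1 added before the log, their values here mostly restate the difference at E15.5. As a share of its E15.5 mean, Hmga2 at P10 was at 1.02% in Cre-positive diaphragm and 35.7% in spinal cord. The spinal cord value rests on 13 to 19 reads a library. In this interaction 5 of 8 passed, and 3 of the 6 members without these 2, where 47.5% of all genes did, and it was chosen after seeing the data.

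Over the whole span, adult against E15.5, 6 of 8 members passed in the same interaction, where 58% of all genes did. Of the 6 members other than Hmga2 and Igf2bp1, 3 passed with a larger fall in diaphragm and 1 with a smaller one. Dlk1 had the larger fall in diaphragm by 4.58 (adjusted p = 2.75e-10, and 7.78e-05 without the intermediate libraries). Hmga2 (-2.13) and Igf2bp1 (-1.65) are at or near 0 in adults in both tissues. With 1 added before the log, their interaction is mostly the difference at E15.5. Adult spinal cord kept 8.48% of its E15.5 mean of Hmga2, on 1 to 7 reads a library, and adult Cre-positive diaphragm had 0 reads. The call of Igf2bp1 was lost with edgeR (-3.26). For Igf2 the value was -1.33 (adjusted p = 0.0121), but it was -0.06 with edgeR (adjusted p = 0.947) and -0.52 with 0.1 added in place of 1 (0.357), and 0.705% and 0.928% of the E15.5 means were left in adult diaphragm and spinal cord. Igf2bp2 (-1.32, adjusted p = 0.00461) likewise gave -0.52 with edgeR (0.387). Igf1 had the smaller fall in diaphragm by 1.05 (0.0334), a call lost without the intermediate libraries (0.177) and when any 1 of 6 libraries was left out (adjusted p up to 0.0843). These were adult replicate 1 and E15.5 replicates 1 and 3 of diaphragm, and adult replicates 1 and 3 and E15.5 replicate 2 of spinal cord. Igf1r (0.40, adjusted p = 0.335) and Igf2bp3 (-0.76, 0.0777) did not pass.

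Other genes of the pathway were taken as lists, chosen with earlier results of these data known. Of 18 genes of IGF signalling tested in Cre-positive diaphragm, 7 were lower and 4 higher in adults than at E15.5 (36.2% and 10.9% of all genes). Grb10, an imprinted adaptor that restrains the receptor, fell to 7.91 ± 1.56 CPM in adults, against 125 ± 15.2 at E15.5 (-3.83, adjusted p = 3.36e-09), and Grb14, an adaptor of the same family, rose to 30.6 ± 6.56 CPM in adults, against 3.94 ± 0.449 (2.66). In spinal cord 12 of 19 were lower and 3 higher (58.1% and 26.3% of all genes), with Irs1, a docking protein of the receptor, at 1.21 ± 0.0838 against 12.2 ± 0.196 CPM (-2.58). Of 11 IGF-binding proteins and their proteases 5 were lower and 1 higher in adult Cre-positive diaphragm, where Igfbp4, a carrier that holds IGFs back, had 13.4 ± 2.86 against 138 ± 22.5 CPM (-3.28), and 9 of 10 were lower in adult spinal cord, where Igfbp5 had 2.22 ± 0.230 against 82.4 ± 6.85 CPM (-4.70). Of all genes 36.2% were lower in diaphragm and 58.1% in spinal cord, as above. The median difference of the binding proteins was -1.13 in Cre-positive diaphragm and -2.87 in spinal cord, beside -0.59 and -0.38 for all genes.

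In the pathway of let-7 processing 4 of 13 genes were lower and 1 higher in adult Cre-positive diaphragm. That share is near that of all genes (36.2% lower and 10.9% higher). In adult spinal cord 11 of 13 were lower, where 58.1% of all genes were lower and 26.3% higher. Dicer1, which cuts the microRNA precursors, had 1.85 ± 0.340 against 9.96 ± 0.796 CPM in spinal cord (-1.95), and Dis3l2, which degrades the precursors that Lin28 has marked, had 6.59 ± 0.253 against 16.9 ± 1.28 (-1.24). Beside the same shares of all genes, 15 of 23 known let-7 targets other than the members were lower and 1 higher in adult Cre-positive diaphragm (median -1.64). In adult spinal cord 15 of 19 of these targets were lower and 3 higher (-1.44). They include the cyclin gene Ccnd2, at 11.3 ± 1.5 against 71.5 ± 14.8 CPM in diaphragm (-2.54), and Mycn, at 0.165 ± 0.0616 against 15.7 ± 1.08 CPM in spinal cord (-3.84). Several of these targets act in dividing cells. Of the cell cycle markers 20 of 20 were lower in adult Cre-positive diaphragm (36.2% of all genes) and 16 of 17 in adult spinal cord (58.1%).

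Imprinted genes, to which Igf2 and Dlk1 belong, were mostly lower in adults. Of 27 others tested in Cre-positive diaphragm 22 were lower and 0 higher in adults (median -2.16), where 36.2% of all genes were lower and 10.9% higher. Of 23 in spinal cord 20 were lower and 2 higher (-0.98), where 58.1% of all genes were lower and 26.3% higher. Cdkn1c, an imprinted growth inhibitor, had 12.4 ± 4.26 against 1409 ± 282 CPM in diaphragm (-6.75) and 10.9 ± 1.91 against 143 ± 24 CPM in spinal cord (-3.60). Plagl1, a zinc finger protein of the imprinted set, had 2.24 ± 0.467 CPM in adult Cre-positive diaphragm against 137 ± 15.6 at E15.5, with 131 at P0.5 and 124 at P10. Nnat, a neuronal membrane protein, had 12.6 ± 2.17 against 1331 ± 37.6 CPM in spinal cord (-6.62).

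The genes whose pattern was most like a member were ranked by the correlation of log2(CPM + 1) over the 12 group means, among 9996 genes that reach 10 CPM. These correlations describe the pattern and carry no p, since the points share libraries, tissue and depth. Igf2 was followed by Plagl1 (r = 0.978), Postn (0.977) and Gpx8 (0.976), Igf1 by Tpm4 (0.977), Col6a3 (0.970) and Nid1 (0.969), and Dlk1 by Lhfpl2 (0.977), Npnt (0.968) and Pycr1 (0.956). Among the members Igf2 and Igf1 had r = 0.918, Igf2 and Dlk1 0.877, Igf2bp1 and Hmga2 0.969 and Igf2 and Lin28b 0.210.

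Markers of other cell types moved with age as well. The diaphragm libraries of E15.5 held liver transcripts: 14 hepatocyte markers summed to 16562 to 19527 CPM in Cre-positive diaphragm at E15.5, 2222 to 18262 at P0.5, 290.0 to 917 at P10 and 292 to 577 in adults. Of these markers 13 of 14 were lower in adults than at E15.5, beside 36.2% of all genes, and Afp and Apoc2 were at 0 in adults. Fetal liver makes Igf2, Igf1, Dlk1 and their binding proteins. Cre-positive diaphragm of P10 had 995 to 1070.4 CPM of Igf2. In Cre-negative diaphragm the hepatocyte sum was 201 to 276 CPM at P0.5 against 22729 to 23135 CPM at E15.5, and the Igf2 level was 1465 to 1973 CPM at P0.5 against 1187 to 1816 CPM at E15.5. In Cre-positive diaphragm at P0.5 replicate 2 had a hepatocyte sum of 18262 CPM, against 2954 and 2222 CPM in replicates 1 and 3, which are nearly copies of each other. Replicate 2 also had the highest summed fibroblast markers (2975 CPM against 2120 and 2087 in replicates 1 and 3), cartilage markers (483 against 222 and 209) and cell cycle markers (226 against 119 and 117). Among the members it had the highest values of its group for Igf2, Igf1, Igf1r, Igf2bp1, Igf2bp2, Igf2bp3 and Dlk1, and the lowest for Hmga2. Lin28b was at 0 in this group. The part of liver transcripts, or of these other contents, in the members' levels was not tested.

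Summed connective tissue markers stayed high to P10 in diaphragm. The 14 fibroblast markers summed to 1954 to 1997 CPM at E15.5, 2087 to 2975 at P0.5, 2066 to 2309 at P10 and 349.9 to 489.8 in adult Cre-positive diaphragm. There 11 of 14 were lower in adults than at E15.5, beside 36.2% of all genes. In Cre-negative diaphragm the markers summed to 3480.3 to 3646, 3615 to 7872, 2561 to 3757 and 567 to 642 CPM at these ages (9 of 14 lower, beside 34.9% of all genes). In spinal cord the sums were 579.9 to 785, 612 to 669, 538 to 656 and 470.1 to 480.2 CPM (13 of 14 lower, beside 58.1%). Markers of meningeal and perivascular cells, which make Igf2 in the nervous system, summed to 471 to 560.2, 206 to 245, 77.1 to 106 and 35.8 to 43.4 CPM in spinal cord from E15.5 to adulthood (9 of 10 lower, beside 58.1% of all genes). Most of the E15.5 sum was Aldh1a2, at 6.16 ± 0.600 CPM in adults against 443 ± 52.5 CPM at E15.5. Aldh1a2, an enzyme of retinoic acid synthesis, is also a gene of some spinal motor neurons, so the sum is no measure of meningeal cells alone. The 13 other genes summed to 59.5 to 72.8, 39.3 to 70.3, 46.8 to 61.0 and 30.3 to 36.9 CPM at these ages. Their part in the members' changes was not tested.

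Summed cell cycle markers in diaphragm were lower in every P0.5 library than in any E15.5 library, while cartilage sums at P0.5 overlapped 1 E15.5 library in Cre-positive diaphragm. Cartilage markers summed to 3867, 339 and 3227 CPM in the 3 Cre-positive libraries of E15.5, 209 to 483 at P0.5, 3.66 to 7.99 at P10 and 1.92 to 3.21 in adults. There 12 of 12 were lower in adults, beside 36.2% of all genes, with Col2a1 and Col9a1 at 0. The E15.5 library with the lowest sum, replicate 2, also had the lowest values of its group for 6 members (Igf2, Igf1r, Igf2bp2, Igf2bp3, Hmga2 and Dlk1) and the highest for 3 (Igf1, Igf2bp1 and Lin28b). It had the lowest hepatocyte sum as well (16562 CPM against 19527 and 19170 in replicates 1 and 3). Its fibroblast sum was the lowest (1954 against 1997 and 1995) and its cell cycle sum the highest (969.8 against 803 and 834). Replicate 3 of that group was mostly replicate 1 (weights 0.806 for replicate 1 and 0.194 for replicate 2), so replicates 1 and 3 are not independent. The adult and E15.5 difference without replicate 2 was -8.59 for Dlk1, -4.25 for Igf2bp3 and -3.13 for Hmga2. In Cre-negative diaphragm, with cartilage sums of 62.5 to 277 CPM at E15.5, Igf2bp3 was at 37.2 ± 2.23 CPM and Hmga2 at 6.76 ± 1.04 CPM. Cell cycle markers summed to 803 to 969.8 CPM at E15.5, 117 to 226 at P0.5, 107 to 121 at P10 and 9.14 to 15.0 in adult Cre-positive diaphragm, and to 39.3 to 42.5 CPM in adult spinal cord against 137 to 146 CPM at E15.5. Their part in the results was not tested.

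**Figure D4:**
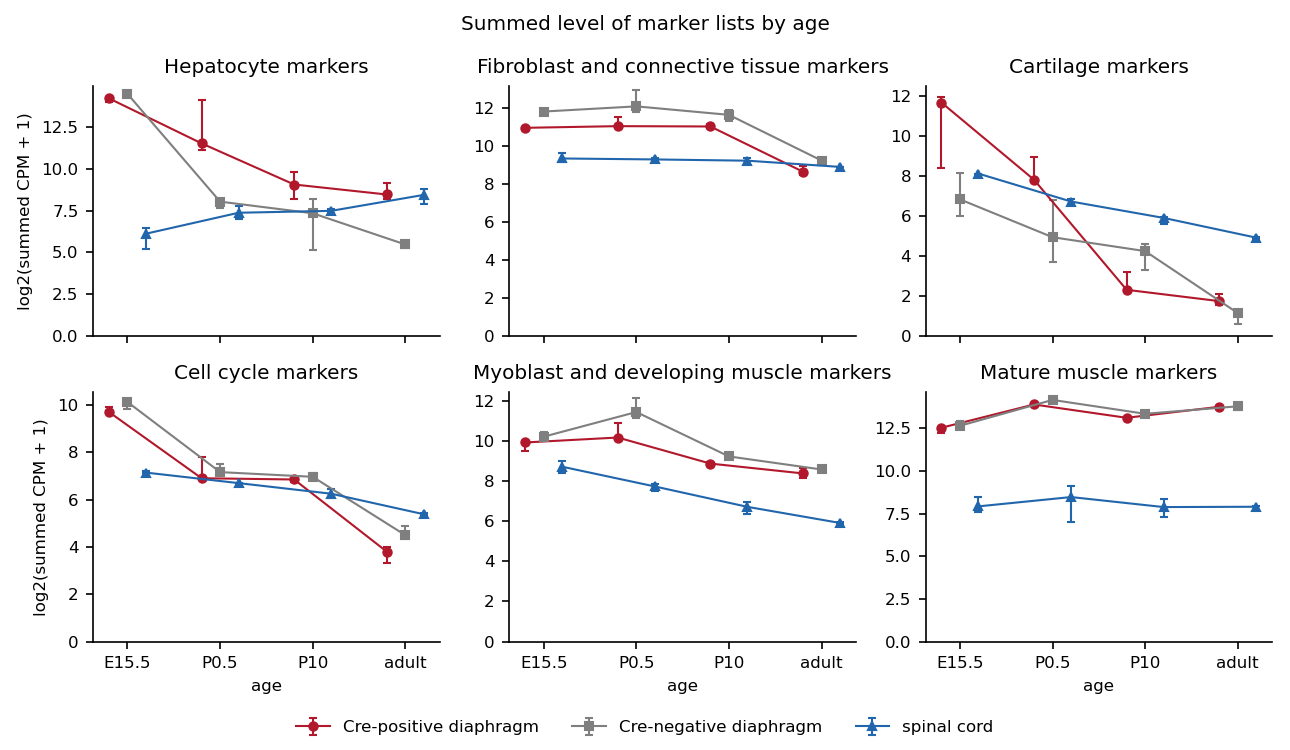
Summed CPM of marker lists as log2(summed CPM + 1) (vertical axis; symbols are the median of 3 libraries and bars run from the lowest to the highest) at each age (horizontal axis) in Cre-positive diaphragm, Cre-negative diaphragm and spinal cord. Hepatocyte markers in Cre-positive diaphragm lie at 290.0 to 917 CPM at P10 against 16562 to 19527 CPM at E15.5, while fibroblast markers lie at 349.9 to 489.8 CPM in adults against 2066 to 2309 CPM at P10.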

How the data were processed

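The deposited table gives CPM per gene for 36 libraries of HA-tag purified RNA, and each column sums to 1000000. Per the submitters' processing notes Bowtie2 2.2.5 and RSEM 1.2.12 were used with mm10, and their roles are not given in the sources used here. Dividing by the smallest step of each library gave whole reads (tolerance 0.1) for 100% of the values, although the depth of Cre-positive P0.5 replicate 3 is only estimated.

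Genes that reached 1 CPM in 3 or more of the fitted libraries were tested with limma 3.58.1 (trend, robust) in R 4.3.3 on log2(CPM + 1). The planned test, written for normalized values, was applied to CPM. Separate fits held all 24 diaphragm libraries, all 12 of spinal cord, and the 24 Cre-positive ones of both tissues. Adjusted p-values (Benjamini-Hochberg) are from limma unless edgeR 4.0.16 is named. Alternatives were a pseudocount of 0.1, no filter, TMM, DESeq2 1.42.0 size factors (RLE), quantile normalization, edgeR's quasi-likelihood test on recovered reads, a replicate block, only the groups compared, and leaving out libraries. The scripts were tested on simulated data. The members are the 9 listed genes, all named. From other lists, the genes named were among the up to 4 passing genes of 5 CPM or more with the largest change. The 3 genes most like a member were taken by correlation over group means, for members of 5 CPM or more. The members and lists were chosen with earlier results of these data known. The gene positions are RefSeq's for GRCm38.p6.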

Additional observations from a re-analysis of the deposited data

Results flagged for a closer look

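The changes with age that differed between Cre-positive diaphragm and spinal cord are listed here because the test of the difference itself passed (differences of log2(CPM + 1), diaphragm minus spinal cord). For adult against E15.5 these were Igf2 (-1.33), Igf1 (1.05), Igf2bp1 (-1.65), Igf2bp2 (-1.32), Hmga2 (-2.13) and Dlk1 (-4.58). For P10 against E15.5 they were Igf2 (2.37), Igf1 (2.19), Igf2bp1 (-1.51), Hmga2 (-2.28) and Dlk1 (-1.32). At P10 Igf2 was at 79.2% of its E15.5 mean in diaphragm and 14.7% in spinal cord, and Igf1 at 111% and 17.6%. Hmga2 and Igf2bp1 met the filter only through diaphragm at E15.5, so on this scale their values mostly restate the difference at that age. As a share of its E15.5 mean, Hmga2 at P10 was at 1.02% in diaphragm and 35.7% in spinal cord. The fall of Igf2 over the whole span differed between tissues on this scale but not in edgeR (-0.06, adjusted p = 0.947). Without the intermediate libraries Hmga2 fell under the filter and was not tested, and of the other members listed Igf2bp1 and Dlk1 kept their call for the adult values. With edgeR the adult call of Igf2bp1 was lost (-3.26).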

How the results depend on the processing

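Of the 99 member differences that passed, 1527 refits kept 1375 calls, lost 148 and turned the sign of 4. Kept calls were 93 of 99 with RLE size factors, 91 with TMM factors, 92 with a pseudocount of 0.1, 96 with no filter, 87 with quantile normalization, 84 with edgeR, 86 of 93 with only the groups compared, 67 of 94 without the intermediate libraries and 585 of 647 with a single library left out. Signs turned for Igf1r in diaphragm minus spinal cord at E15.5 (0.0018 with TMM factors, 0.0789 with quantile normalization and 0.0120 with edgeR) and for Igf2bp1 in the P10 interaction of tissues (0.3529 with edgeR). The cause was not tested.

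Counts of members that passed moved as follows. Within Cre-positive diaphragm, P0.5 against E15.5 gave 1 with edgeR and 1 without the intermediate libraries (2 as reported). Without the intermediate libraries, P10 against P0.5 gave 1 (2), and adult against P10 gave 2 (5), with 3 to 4 when single libraries were left out. In Cre-negative diaphragm P0.5 against E15.5 gave 2 to 5 with single libraries left out (3), and without the intermediate libraries the later steps gave 2 and 2 (4 and 4). Between Cre-positive and Cre-negative diaphragm at E15.5 the count was 0 with a pseudocount of 0.1, TMM factors, RLE size factors, edgeR, the replicate block, only the groups compared and without the intermediate libraries, and 0 to 1 with single libraries left out (1). At P0.5 it was 2 with a pseudocount of 0.1, 1 with TMM factors, RLE size factors, edgeR or only the groups compared, 0 without the intermediate libraries and 1 to 5 with single libraries left out (4). At P10 it was 1 with only the groups compared (0). In adults it was 2 with a pseudocount of 0.1, quantile normalization or edgeR, 0 with no filter, the replicate block, only the groups compared or without the intermediate libraries, and 0 to 1 with single libraries left out (1). The interaction of Cre and age gave 1 with quantile normalization and 0 to 1 with single libraries left out (0). In spinal cord adult against P10 gave 3 with only the groups compared (5). Diaphragm against spinal cord gave 5 at E15.5 without the intermediate libraries and 5 to 7 with single libraries left out (8), and in adults 5 with TMM factors, 5 with quantile normalization and 7 with edgeR (3). The tissue interactions gave 2 (6) for adults and 3 (5) for P10 without the intermediate libraries. In these tissue comparisons 7 members were tested without the intermediate libraries and 8 with them, since Hmga2 then fell under the filter. These libraries lie within their groups, and leaving them out takes 1 of 3 libraries from each group.

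No pairing by replicate number was seen at the limit used: in 0 of 20 comparisons did every same-numbered pair correlate above 0.1 (r from -0.104 to 0.113). In some steps all pairs were weakly positive, as in P10 against P0.5 Cre-positive diaphragm (0.0950, 0.113 and 0.0867). The check cannot exclude that samples share animals, since 1 library of each group is nearly a weighted sum of the other 2. With the replicate block 94 of 99 calls were kept, and the 5 lost had adjusted p = 0.0549 to 0.0632.

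Counts over all genes moved by over 1.5 times mainly without the intermediate libraries. In Cre-positive diaphragm adult against E15.5 gave 2584 (6524 as reported), P0.5 against E15.5 531 (3262), P10 against P0.5 156 (2197) and adult against P10 223 (2641). In Cre-negative diaphragm the same comparisons gave 3154 (7089), 2031 (6098), 916 (4663) and 337 (3482). Cre-positive against Cre-negative diaphragm gave 7 at E15.5 (1522), 108 at P0.5 (3844), 0 at P10 (201) and 14 in adults (1659), their interaction 0 (1014), and the tissue interactions 4730 for adults (8595) and 2778 for P10 (7043). With edgeR the counts were 1629 for P0.5 against E15.5 Cre-positive diaphragm and, between genotypes, 706 at E15.5 and 49 at P10. With no filter these last 2 were 2434 and 365. With only the groups compared they were 4068 for adult against P10 Cre-positive diaphragm, 3130 for P0.5 against E15.5 Cre-negative diaphragm and, between genotypes, 1252 at P0.5 and 1196 at P10. Leaving out single libraries brought the counts down to 1369 for P10 against P0.5 and 1670 for adult against P10 Cre-positive diaphragm, 2264 for adult against P10 Cre-negative diaphragm, and between genotypes 693 at E15.5, 44 at P10, 844 in adults and 576 for the interaction. Other scaling moved the median difference of all genes between adult and E15.5 Cre-positive diaphragm to -0.15 with TMM factors and 0.05 with quantile normalization (-0.59 as reported), and the share of calls that were lower to 55.8% and 47.3% (76.8%). In spinal cord this share was 50.4% and 49.2% (68.9%). Depth limits Lin28b, whose spinal cord levels rest on 15 to 52 reads a library.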
